A study of Mus musculus with 4 samples.

Results

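The genes of Cdk5, DARPP-32 and protein kinase A (PKA) signalling were examined in the globus pallidus of mice given cocaine and of mice given saline. The members are the 10 genes Cdk5, Cdk5r1, Cdk5r2, Ppp1r1b, Prkaca, Prkar2b, Ppp3ca, Ppp1ca, Arpp21 and Arpp19, chosen by exact match of the symbol in the platform's gene annotation. They were read by 14 of the 33653 array features with 1 symbol, and all 10 were among the 18772 genes fitted. The cocaine mice were C57BL6 males that received 15 mg/kg cocaine on days 2, 3 and 4 of a conditioned place preference protocol, a test of the preference for a compartment paired with a drug, and that had a high preference score. The saline mice were C57BL6 males taken through the same protocol with saline on the same days. The labels give no ages. Each of 4 Agilent arrays compared 1 cocaine mouse with 1 saline mouse, with cocaine RNA in Cy5 in pairs 1 and 3 and in Cy3 in pairs 2 and 4, so the number of pairs limits the precision of every value.

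Dopamine acting on D1 receptors raises cyclic AMP, which binds the regulatory subunits of PKA and frees its catalytic subunits. PKA phosphorylates DARPP-32, the product of Ppp1r1b, at a threonine that turns it into an inhibitor of protein phosphatase 1. Cdk5, a kinase that needs a p35 or p39 activator rather than a cyclin, phosphorylates DARPP-32 at another threonine and so makes it an inhibitor of PKA, and the calcium-dependent phosphatase calcineurin removes the PKA phosphate. DARPP-32 and ARPP-21 are best known from the spiny projection neurons of the striatum, whose axons end in the globus pallidus. The sequences of these proteins and of the array probes were not used here.

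All values are log2 ratios of cocaine over saline after intensity-dependent normalization within each array, and the change of a gene is the fitted value with its moderated standard error (SE, n = 4 pairs). No source names the numerator of the deposited ratios. Cocaine is taken as the likely one, since the series' design text gives cocaine mice relative to saline mice. If saline is the numerator, every sign below is turned. In bulk tissue, fewer cells of a type and less RNA per cell cannot be told apart. Of 11 measured markers of pallidal neurons, 11 had a mean signal above the median of all features (184 scanner units), as did 16 of 16 markers of striatal projection neurons. So did 8 of 8 astrocyte, 8 of 8 oligodendrocyte and 7 of 7 microglia markers, so this was not particular to those neurons. The counts were 6 of 8 for endothelium and pericytes, 5 of 7 for cholinergic and 4 of 7 for cortical and thalamic neuron markers. Over the named features fitted the median was higher, at 218, and the share of all genes above 184 was not counted. Normalized ratios of different pairs correlated across genes at 0.525 and 0.517 where the dyes ran the same way. Where the dyes ran opposite ways the correlations were -0.389 to -0.685, so a dye effect remained in the ratios.

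None of the 10 members passed the threshold of an adjusted p under 0.05 between cocaine and saline mice. The background was the same, with 0 of 18772 genes called (0.0%) in limma and a smallest adjusted p of 0.97. At an unadjusted p under 0.05 there was 1 member, Cdk5, and 474 of all genes (2.53%). Of the members, 3 had a change above 0 and 7 below 0, against 53.4% of all genes below 0. With the ratios as deposited, 9 of 10 were below 0, against 52.9% of all genes. Those ratios were centred on each array's median but not normalized by signal, and the part of this in the 9 was not tested. With them, Cdk5r1 and Prkaca, both near 0 after normalization, were each at -0.19. Ppp1r1b, at -0.14 after normalization, was at -0.11. The median change of the members was -0.032, against -0.0064 over all genes. Their sizes were small, with a median absolute change of 0.071, against 0.050 over all genes. No member had the same sign in all 4 pairs, which 5.77% of all genes did.

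**Figure D1:**
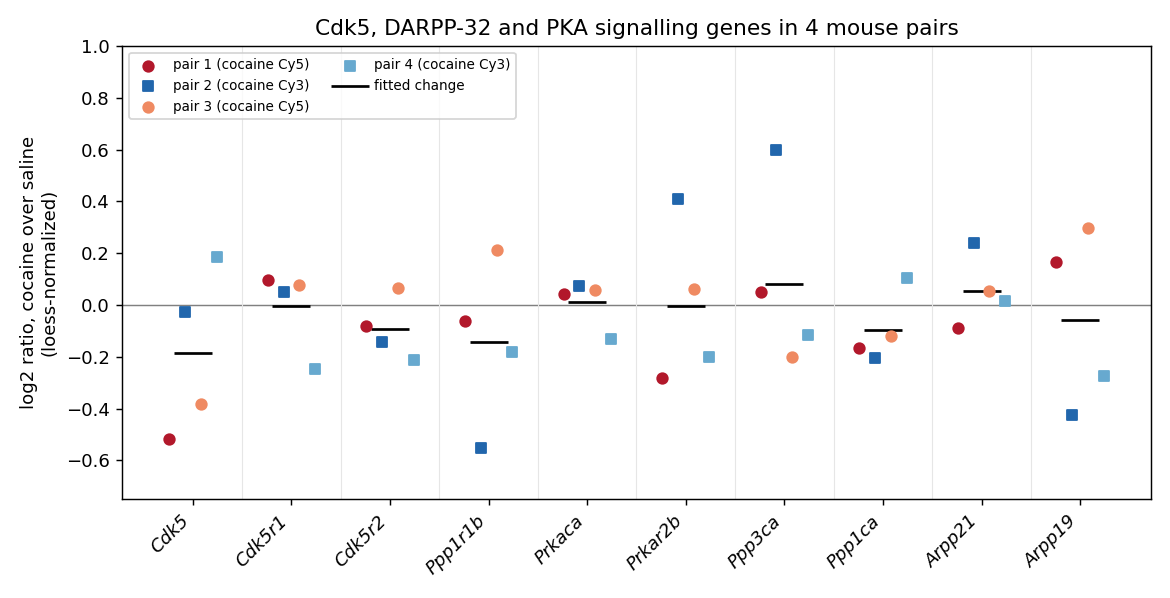
The vertical axis is the normalized log2 ratio of cocaine over saline, and each of the 10 members has 4 points, 1 for each mouse pair. Circles are pairs with cocaine RNA in Cy5, squares are pairs with cocaine RNA in Cy3, and black dashes are the fitted changes. Every member has points on both sides of 0, and Cdk5 has the lowest fitted change, -0.19.

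Cdk5, the kinase itself, had the largest change of the 10. Its normalized log2 ratios were -0.52, -0.028, -0.38 and 0.18 in pairs 1 to 4. The values were clearly below 0 in the pairs with cocaine in Cy5, close to 0 in pair 2 and above 0 in pair 4. The fitted log2 change was -0.19 ± 0.066 (SE, n = 4), a fold of 0.879 for cocaine over saline with an unadjusted 95% interval of 0.786 to 0.983. The adjusted p over all genes in limma was 0.97, so the gene was not called, and 4.79% of all genes had a larger absolute change. Its dye effect, Cy5 over Cy3, was -0.26 ± 0.066 and thus larger than its change with treatment, without passing the threshold (adjusted p = 0.0622 in limma). The change with treatment was -0.38 ± 0.16 with the ratios as deposited. With normalized ratios but no dye term it was again -0.19, with an SE of 0.13, since the distance between the dye orientations then counts as error. The feature was well lit, with a mean signal of 3982 scanner units.

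The activators of Cdk5 were short of the threshold as well. Cdk5r1 encodes p35, the main neuronal activator, which calpain can cut to the longer-lived p25. It had ratios of 0.098, 0.050, 0.079 and -0.25 in pairs 1 to 4. The first 3 pairs lay close together just above 0, and pair 4 stood apart below them. Cdk5r1 had a fitted log2 change of -0.0052 ± 0.070, with an interval for the fold of 0.885 to 1.12. It was 0.069 without pair 4 and -0.19 with the ratios as deposited, centred on each array's median.

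Cdk5r2 encodes p39, the second neuronal activator. Its ratios were -0.082, -0.14, 0.064 and -0.21 in pairs 1 to 4. They were below 0 in every pair but pair 3, in a narrow band. For p39 the fit gave a log2 change of -0.093 ± 0.060, with an interval for the fold of 0.847 to 1.04. With the ratios as deposited it was -0.28 ± 0.13, below that interval, whose lower end is -0.24 on the log2 scale. It was also short of the threshold there (adjusted p = 0.92 in limma).

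Ppp1r1b, the gene of DARPP-32, had ratios of -0.060, -0.55, 0.21 and -0.18 in pairs 1 to 4. Pair 2 was far below 0 and pair 3 above it. Over all pairs the log2 change of Ppp1r1b was -0.14 ± 0.086, a fold of 0.904 with an interval of 0.782 to 1.05 (adjusted p = 0.97 in limma). The change was -0.052 without pair 2 and -0.24 without pair 4. The dye effect of Ppp1r1b, Cy5 over Cy3, was 0.22 ± 0.086. This was larger in size than its change with treatment, without passing the threshold (adjusted p = 0.169 in limma). Its single feature was dim, with a mean signal of 202 scanner units. This was below the median of 218 over the named features fitted, though above the 184 over all features.

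The PKA subunits differed in how far the pairs lay apart. Prkaca, the alpha catalytic subunit, had ratios of 0.044, 0.075, 0.058 and -0.13 in pairs 1 to 4. As with Cdk5r1, pairs 1 to 3 lay together just above 0 and pair 4 below. Its log2 change was 0.012 ± 0.063 (-0.19 with the ratios as deposited), with an interval for the fold of 0.907 to 1.12. It was the member whose pairs agreed best, spanning 0.21 on the log2 scale.

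Prkar2b, the RII beta regulatory subunit that holds PKA at anchoring proteins in neurons, had ratios of -0.28, 0.41, 0.063 and -0.20 in pairs 1 to 4. Pairs 1 and 4 were below 0 and pair 2 well above. The fitted log2 change was -0.0028 ± 0.12, and it was -0.16 without pair 2, 0.15 without pair 4 and -0.18 with the ratios as deposited. A fitted value near 0 here came from pairs that went opposite ways, not from pairs that agreed.

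The other PKA subunits were also short of the threshold. Prkacb, the beta catalytic subunit, had a log2 change of 0.13 ± 0.099, with 0.52 in pair 2 and -0.052 to 0.064 in the other pairs, so that without pair 2 it was -0.012. Prkar1a and Prkar1b, the type I regulatory subunits, had -0.094 ± 0.074 and -0.099 ± 0.12, and Prkar2a, the RII alpha subunit, had 0.0098 ± 0.058. Over a list of 18 PKA subunits, inhibitor peptides and A-kinase anchoring proteins, 0 passed at an adjusted p under 0.05 and 0 at an unadjusted p under 0.05. In that list 12 genes were above 0 and 6 below, with a median of 0.011, against 8744 of 18772 genes above 0 in the whole fit.

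**Figure D2:**
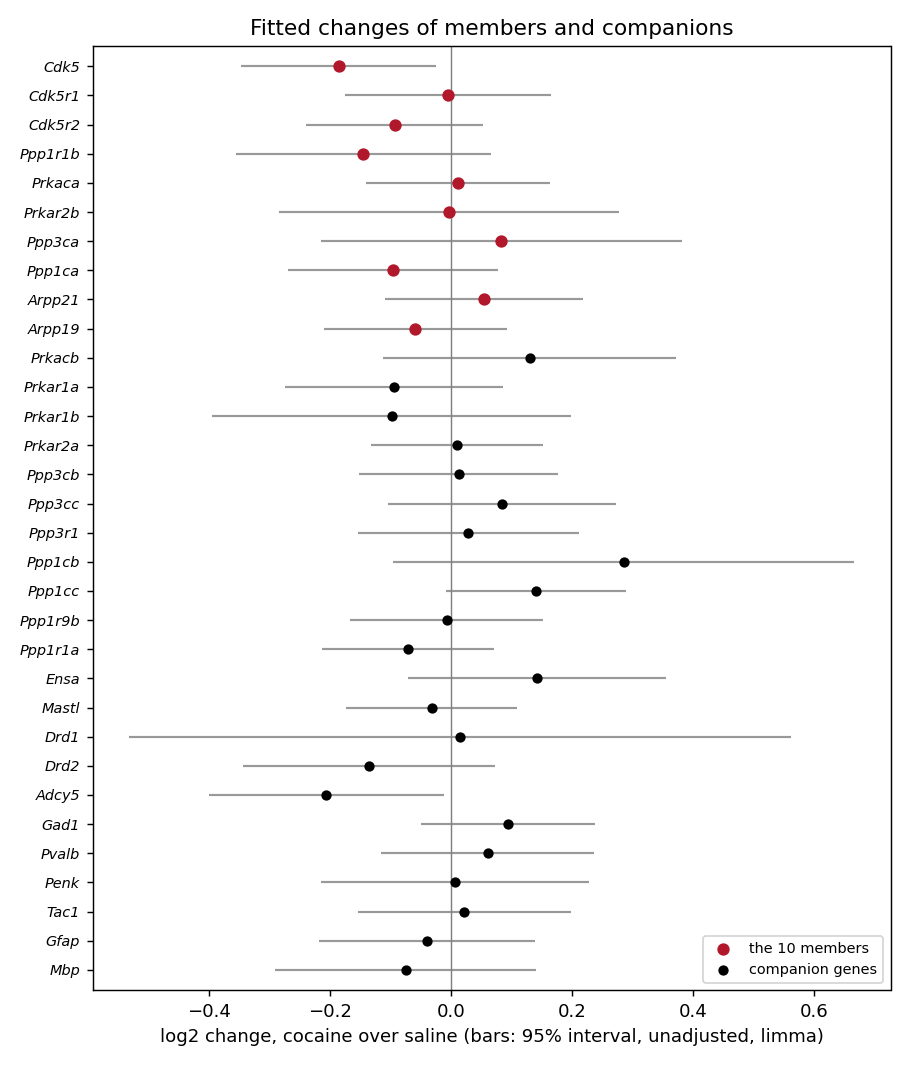
The horizontal axis is the fitted log2 change of cocaine over saline, with the 10 members in red above the companion genes in black, and bars give the unadjusted 95% interval in limma. The intervals of Cdk5 and Adcy5 leave out 0, and those of the other genes shown include it.

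The phosphatases that act on DARPP-32, or that it inhibits, had changes of either sign, none past the threshold. Ppp3ca, the alpha catalytic subunit of calcineurin, had ratios of 0.051, 0.60, -0.20 and -0.12 in pairs 1 to 4. Pair 2 stood high, and the other 3 pairs spread around 0. The fitted log2 change was 0.083 ± 0.12, the largest SE among the members. It was -0.096 without pair 2, 0.26 without pair 4 and -0.13 with the ratios as deposited, so that no direction can be given.

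Ppp1ca, the alpha catalytic subunit of protein phosphatase 1, had ratios of -0.16, -0.20, -0.12 and 0.10 in pairs 1 to 4. The first 3 pairs were below 0 by a similar amount and pair 4 was above. The fitted log2 change was -0.096 ± 0.071, with an interval for the fold of 0.83 to 1.06. Ppp1ca was at -0.30 ± 0.17 with the ratios as deposited (adjusted p = 0.92 in limma). This is below that interval, whose lower end is -0.27 on the log2 scale. The paralogs of Ppp1ca had values of opposite sign. Ppp1cb had 0.29 ± 0.16, with 0.85 in pair 1 and -0.29 in pair 4, and its change was 0.11 without pair 1 and 0.47 without pair 4. Ppp1cc had 0.14 ± 0.061, above 0 in every pair but pair 2 (-0.029), but 0.016 with the brighter of its 2 features alone and -0.058 with the ratios as deposited. The difference between paralogs was not tested.

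Among the other companions, the calcineurin subunits Ppp3cb, Ppp3cc and Ppp3r1, the last being the regulatory subunit, had 0.013 ± 0.067, 0.084 ± 0.077 and 0.029 ± 0.075. Ppp3r1 carried a dye effect of 0.47 ± 0.075 that passed the threshold (adjusted p = 0.0185 in limma). With the brightest of its 3 features alone, its change was 0.26 ± 0.20. Spinophilin, the product of Ppp1r9b, which anchors protein phosphatase 1 in dendritic spines, had -0.0070 ± 0.065. Ppp1r1a, the inhibitor-1 relative of DARPP-32, had -0.071 ± 0.058. A list of 36 measured genes took in kinases and phosphatases that act on DARPP-32 or that it inhibits, with their subunits and regulators. It covered protein phosphatases 1 and 2A, calcineurin, casein kinases and cGMP-dependent kinases. Of these genes 22 were above 0 and 14 below, against 53.4% of all genes below 0. None of the 36 passed at an adjusted or an unadjusted p under 0.05, and the median was 0.013.

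Arpp21 and Arpp19 encode PKA substrates named as cyclic AMP-regulated phosphoproteins. ARPP-21 binds calmodulin when phosphorylated. ARPP-19, phosphorylated by the kinase Mastl, inhibits protein phosphatase 2A during mitosis. Arpp21 had ratios of -0.088, 0.24, 0.052 and 0.015 in pairs 1 to 4, averaged over 4 features. Only pair 1 was below 0. The fitted log2 change was 0.054 ± 0.067, and 0.0080 with the ratios as deposited.

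The 4 features of Arpp21 disagreed. The brightest, with a mean signal of 5480 scanner units, had -0.13, 0.78, 0.17 and -0.062 in pairs 1 to 4 and a log2 change of 0.19 ± 0.15. The next, at 756, had 0.23, -0.21, 0.34 and -0.11, above 0 in the pairs with cocaine in Cy5 and below 0 in the others, and a change of 0.062 ± 0.066. The remaining 2, at 135 and 126, lay near the lower end of the signals and were annotated to cDNA clones. Their changes were -0.015 ± 0.078 and -0.019 ± 0.075. Pair 2 thus stood high in the brightest feature and below 0 in the next, for the same gene and the same mice. The brightest feature and the next are annotated to different RefSeq transcripts of Arpp21. Whether they read different transcripts was not tested.

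Arpp19 had ratios of 0.17, -0.42, 0.30 and -0.27 in pairs 1 to 4, averaged over 2 features. Pairs with cocaine in Cy5 were above 0 and those with cocaine in Cy3 below. Its log2 change was -0.059 ± 0.062 (-0.12 with the ratios as deposited), and Arpp19 was the single member whose dye effect passed the threshold (0.29 ± 0.062, adjusted p = 0.0414 in limma), against 9.47% of all genes. This pattern came from its dim feature, at 143 scanner units, with 0.37, -1.02, 0.67 and -0.50 in pairs 1 to 4. The bright feature, at 2912, had -0.037, 0.17, -0.078 and -0.046, a log2 change of 0.0018 ± 0.070 and a dye effect of -0.059 ± 0.070. With each feature fitted on its own, 10.2% of all features had a dye effect past the threshold, and the dim Arpp19 feature was the single one among those of the members (0.64 ± 0.11, adjusted p = 0.0219 in limma). With the bright feature alone, Arpp19 was therefore centred on 0. In the fit with the brightest feature of each gene, 0 of 10 members had a dye effect past the threshold. The share of all genes in that fit was not counted.

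**Figure D3:**
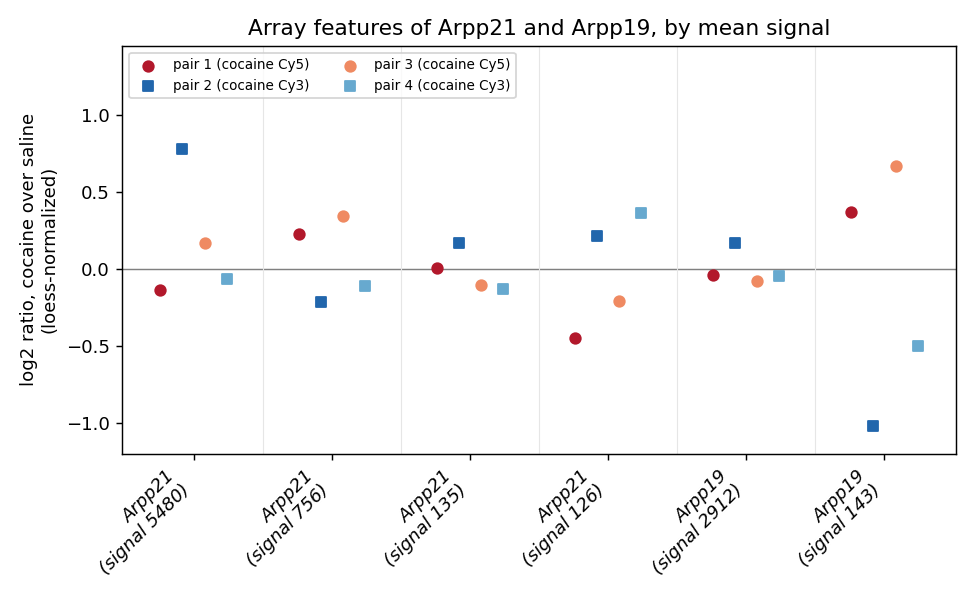
Each column is 1 array feature of Arpp21 or Arpp19, labelled with its mean signal in scanner units, and the vertical axis is the normalized log2 ratio of cocaine over saline in each of the 4 pairs. Circles are pairs with cocaine RNA in Cy5 and squares pairs with cocaine RNA in Cy3. The dim Arpp19 feature reaches from -1.02 to 0.67, while the bright one stays between -0.078 and 0.17.

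Ensa, the close relative of Arpp19, had a log2 change of 0.14 ± 0.087 and Mastl, the kinase of both, -0.032 ± 0.058. Ensa was at 0.53 in pair 1 and between -0.028 and 0.062 in the other pairs, and its change was 0.025 without pair 1. In the list of the ARPP family and its partners, 8 of 10 measured genes were above 0, with a median of 0.050. Over all genes 8744 of 18772 were above 0, with a median of -0.0064. None of the 10 passed at an adjusted or an unadjusted p under 0.05. In the list of Cdk5 activators, binding proteins and substrates, 10 of 21 measured genes were above 0 and 11 below, with a median of -0.0050. Past an unadjusted p under 0.05 were 0 higher and 3 lower genes of that list, against 0.879% higher and 1.65% lower over all genes. Beside Cdk5 these were Cdk5rap3, a Cdk5 activator-binding protein, at -0.22 ± 0.066, and Nes, an intermediate filament gene, at -0.14 ± 0.056, both named after their values were seen and both at an adjusted p of 0.97 in limma.

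The fitted changes of the members moved with single pairs. Without pair 2 all 10 members had a change below 0, against 49.1% of all genes. Without pair 4 it was 5 of 10, against 54.0% of all genes. The fit without pair 2 has pair 4 as its only array with cocaine in Cy3. In pair 4, 3 of 10 members were above 0, against 9403 of 18772 genes. Some changes without pair 2 were close to 0, such as -0.002 for Arpp21, -0.019 for Ppp1ca and -0.022 for Arpp19. Without pair 4, the members with the largest changes in size were Ppp3ca (0.26), Cdk5 (-0.24), Ppp1r1b (-0.24) and Ppp1ca (-0.17). That fit has pair 2 as its only array with cocaine in Cy3. Cdk5 kept its sign in every fit with 1 pair left out, with changes from -0.24 to -0.13. So did Cdk5r2 (-0.13 to -0.057), Ppp1r1b (-0.24 to -0.052), Ppp1ca (-0.17 to -0.019) and Arpp19 (-0.097 to -0.022). The other 5 members changed sign in at least 1 of these fits.

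**Figure D4:**
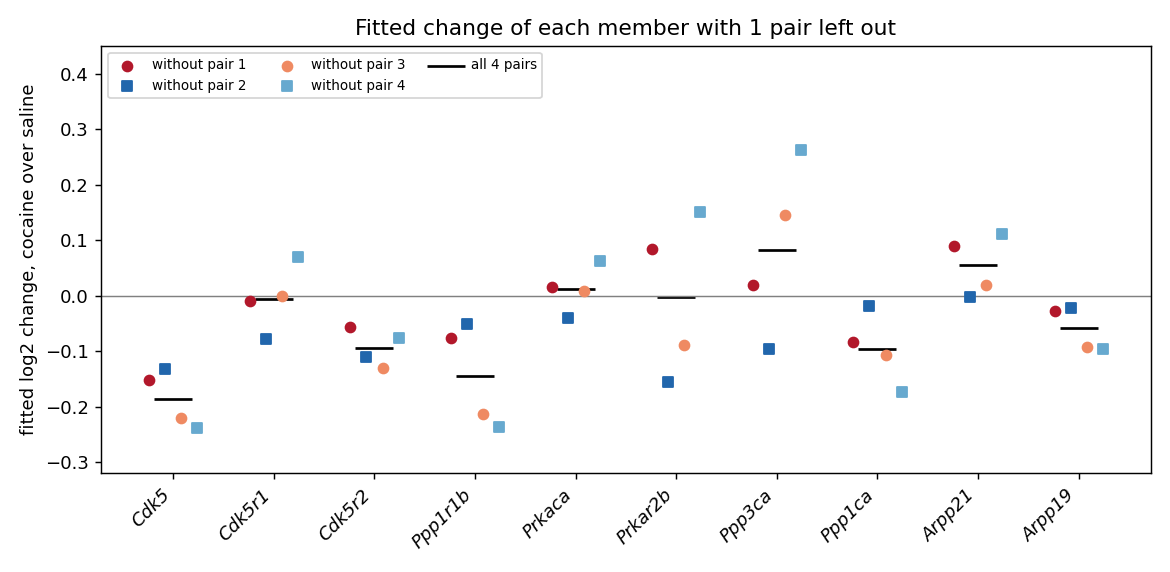
The vertical axis is the fitted log2 change of cocaine over saline for each member, with coloured points for the fits that leave out pair 1, 2, 3 or 4 and black dashes for all 4 pairs. Points without pair 2 lie below 0 for all 10 members, and Ppp3ca ranges from -0.096 to 0.26.

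Over all genes, the normalized ratios had standard deviations of 0.261, 0.325, 0.207 and 0.219 in pairs 1 to 4, so pair 2 spread the widest. Pair 2 was the pair in which Prkar2b, Ppp3ca and the brightest Arpp21 feature were highest, at 0.41, 0.60 and 0.78. In the same pair, Drd1, the D1 dopamine receptor, was at 1.01, Penk, the enkephalin precursor, at 0.51 and Tac1, the substance P precursor, at 0.30. Drd2 and Adcy5, companions that are also striatal markers, were below 0 in that pair, at -0.15 and -0.070. Of 16 measured markers of striatal projection neurons, 10 were above 0 in pair 2 (median 0.13) and 3 in pair 4 (median -0.16). In pairs 1 and 3 the numbers were 6 and 8, with medians of -0.091 and -0.020. Of all 18772 genes, 8968, 8884, 9667 and 9403 were above 0 in pairs 1 to 4. Ppp1r1b, itself enriched in striatal projection neurons, went the other way in pair 2, at -0.55. That value is from a single dim feature with cocaine in Cy3, and the dye effect of the gene was 0.22 ± 0.086. The parts of striatal tissue and of dye in these values were not tested.

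Upstream of the pathway, where Adora2a was not among the genes fitted, none of the receptors and enzymes named here passed. Adcy5, the striatal adenylyl cyclase, had -0.62, -0.070, -0.30 and 0.17 in pairs 1 to 4, close to the values of Cdk5 in each pair. Its log2 change was -0.21 ± 0.079 (adjusted p = 0.97 in limma). The dye effect of Adcy5 was -0.25 ± 0.079, near the -0.26 of Cdk5. Adcy5 was not among the 4 genes nearest to Cdk5, which are named below, and the likeness was not tested. Drd1 had 0.015 ± 0.22 and Drd2 -0.14 ± 0.085. Drd1 was at -0.36 without pair 2 and 0.39 without pair 4. Of the tissue references, Gad1 had 0.094 ± 0.059 and Pvalb 0.061 ± 0.072 (pallidal neurons), Penk 0.0068 ± 0.091 and Tac1 0.022 ± 0.072 (striatal neurons), Gfap -0.040 ± 0.073 (astrocytes) and Mbp -0.075 ± 0.089 (myelin). With the ratios as deposited, Gad1, Pvalb, Penk, Tac1 and Drd1 were below 0.

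**Figure D5:**
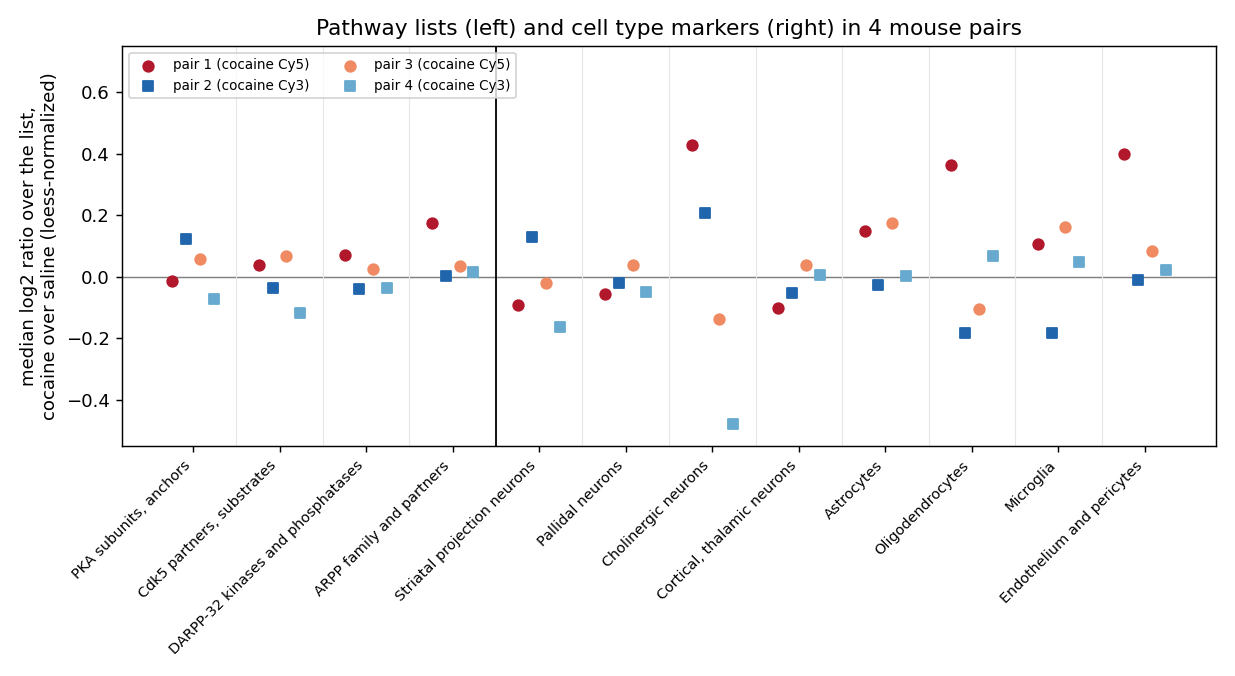
The vertical axis is the median normalized log2 ratio of cocaine over saline over the genes of each list in each of the 4 pairs, with pathway lists left of the black line and cell type markers right of it. Medians of the pathway lists lie between -0.12 and 0.18, and those of the striatal markers between -0.16 in pair 4 and 0.13 in pair 2.

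Markers of other cell types also differed between pairs. Cholinergic markers (7 measured) had medians of 0.43, 0.21, -0.14 and -0.48 in pairs 1 to 4. Oligodendrocyte markers (8 measured) were at 0.36 in pair 1 and -0.18 in pair 2, and markers of endothelium and pericytes (8 measured) at 0.40 in pair 1 and -0.011 in pair 2. Astrocyte markers (8 measured) had 0.15, -0.028, 0.17 and 0.0020, microglia markers (7 measured) 0.11, -0.18, 0.16 and 0.049, pallidal markers -0.055, -0.021, 0.039 and -0.050, and cortical and thalamic neuron markers (7 measured) -0.10, -0.052, 0.037 and 0.0060. Their part in the values of the 10 members was not tested.

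The genes closest to Cdk5 and to Ppp1r1b over the 4 pairs were sought among 10353 named genes with a signal of at least 202 scanner units, by the root mean square distance of the 4 normalized ratios. For Cdk5 they were Slc25a1, the mitochondrial citrate carrier (distance 0.034), Stx5a, a SNARE of the Golgi (0.059), Abca2, a lipid transporter (0.061), and Rhbdl1, of the rhomboid family (0.063). For Ppp1r1b they were Rasl10b (0.016), Coa7 (0.026), Myd88, an adaptor of Toll-like receptors (0.027), and Cad, an enzyme of pyrimidine synthesis (0.029). The nearest member to Cdk5 was Ppp1ca, at 0.24, and the nearest to Ppp1r1b was Arpp19, at 0.14. Over 4 values such closeness is a description, and the values share arrays and dyes.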

How the data were processed

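The members and gene lists were chosen with earlier results of these data known. A PicoPure kit and linear amplification with Cy3 or Cy5 were used for the RNA, per the labels' protocols, and Agilent Feature Extraction is named in the submitters' processing notes. How that program corrected background or normalized is not given in the sources used here. For the comparison, the authors deposited 1 log2 ratio of the channels for each of 45220 features on each array, with 0 missing values. Between arrays whose dyes were exchanged, these ratios correlated at -0.847 to -0.947, so the columns are read as turned to 1 treatment direction, and their medians (0.42, -0.58, 0.41 and -0.43) show no dye normalization. The ratios were therefore normalized by loess within arrays (limma 3.58.1, span 0.3, 4 iterations). Its mean signal was recovered for 43734 features from pairs 1 and 3, where 2 to the power of a value is a ratio of whole numbers (common multiple up to 40, signal floor 90), and was used for all 4 arrays.

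Features were named from the platform annotation, and features of 1 symbol averaged. Of the listed features, 33653 had 1 symbol and 56 several, and 11511 were not listed. The 10 members matched RefSeq by Entrez ID. Gene ratios (18772) went into limma's lmFit and eBayes, with two-sided p-values adjusted by Benjamini-Hochberg. The model held a dye intercept and a treatment coefficient whose sign follows the orientation (2 residual and 4.05 prior degrees of freedom). The dye effect of a gene does not widen its SE. The signal recovery and the fit were tested on simulated data. Companion genes were named by role and not by value, and the 4 genes nearest to each of Cdk5 and Ppp1r1b were named by distance. Alternatives were the ratios as deposited, a loess span of 0.7, no dye term, arrays scaled to 1 spread, the brightest feature per gene, features above the median signal and leaving out each pair; a fit of each feature on its own was added after seeing the data. Of 23 companions, 22 were measured. That the mice of each group are separate animals is read from the animal codes in the labels.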

Additional observations from a re-analysis of the deposited data

Results flagged for a closer look

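In 3 series of 4 values, 1 pair lay far from the other 3, out of 44 series checked (members, companion genes and list medians), where chance gives about 1 in 20. For Cdk5r1 it was pair 4, at a normalized log2 ratio of -0.247, while pairs 1 to 3 lay between 0.050 and 0.098. For Prkaca it was also pair 4, at -0.13, while pairs 1 to 3 lay between 0.044 and 0.075. For Ensa it was pair 1, at 0.532, while pairs 2 to 4 lay between -0.028 and 0.062.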

How the results depend on the processing

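The number of members called between cocaine and saline was 0 under all 10 alternative settings and in the fit of single features. Over all genes it was 0, except for 3 genes without pair 2 and 3 without pair 4, so the range without 1 pair was 0 to 3; such a fit rests on 1 array for 1 of the dye orientations. Cdk5, Cdk5r2, Ppp1r1b and Ppp1ca kept a change below 0 in every alternative in which they were fitted. Cdk5 stood at -0.38 with the ratios as deposited and was no longer past the unadjusted threshold without the dye term, with features above the median signal and without pair 1, 2 or 3. Ppp1r1b, Ppp3cc and Mastl were below that signal and gave no value there. With the ratios as deposited, companions with a change over 0.05 in size that kept their sign but moved by over 1.5 times were Prkar1a at -0.29, Ppp3cc at 0.14, Ppp1cb at 0.074, Ppp1r1a at -0.16, Ensa at 0.046, Adcy5 at -0.33 and Mbp at -0.29. With the brightest feature of each gene such companions were Prkacb at 0.32, Ppp3cc at 0.17, Ppp1cc at 0.016, Ppp1r1a at -0.007 and Gad1 at 0.20. With the ratios as deposited, these changed sign: Prkaca at -0.19, Ppp3ca at -0.13, Prkacb at -0.016, Ppp3cb at -0.052, Ppp1cc at -0.058, Mastl at 0.025, Drd1 at -0.024, Gad1 at -0.032, Pvalb at -0.13, Penk at -0.19 and Tac1 at -0.008. With the brightest feature of each gene, these changed sign: Arpp19 at 0.002 and Prkar2a at -0.06. With features above the median signal alone, these changed sign: Arpp19 at 0.002 and Prkar2a at -0.06. With arrays scaled to 1 spread, these changed sign: Drd1 at -0.044 and Penk at -0.023. Leaving out 1 pair changed the sign of these, with the ranges Cdk5r1 -0.079 to 0.069, Prkaca -0.04 to 0.063, Prkar2b -0.16 to 0.15, Ppp3ca -0.096 to 0.26, Arpp21 -0.002 to 0.11, Prkacb -0.012 to 0.27, Prkar1b -0.26 to 0.067, Prkar2a -0.015 to 0.035, Ppp3cb -0.048 to 0.073, Ppp3cc -0.009 to 0.18, Ppp3r1 -0.06 to 0.12, Ppp1r9b -0.062 to 0.048, Drd1 -0.36 to 0.39, Pvalb -0.02 to 0.14, Penk -0.12 to 0.13, Tac1 -0.058 to 0.10, Gfap -0.12 to 0.04 and Mbp -0.18 to 0.026. Members with a dye effect numbered 1 with all features averaged, against 9.47% of all genes. They numbered 8 with the ratios as deposited, which keep the dye differences of the arrays, and 2 with arrays scaled to 1 spread. With the brightest feature and with features above the median signal they numbered 0, and without 1 pair 0 to 2. The share of all genes was not counted in these other settings, so the counts cannot be read as particular to the members. The brightest feature and the filter leave out the dim Arpp19 feature, and for the others the cause was not tested. Each array holds its pair as 1 ratio, so every fit was already paired and there was no unpaired fit to set beside it. Background and saturation were not tested, as no scanner output was used here.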
